A study of Mus musculus with 4 samples.

Results

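The 10 genes described here encode enzymes of myelin lipid metabolism: Sptlc2, Degs1, Cers2, Elovl1, Elovl7, Fa2h, Ugt8a, Gal3st1, Sgms1 and Aspa. They were taken as a named list, chosen with earlier results of these data known, and were matched by symbol among the 52636 Ensembl genes in each file. RNA was measured by bulk RNA-seq after dissociation of the corpus callosum, a white matter tract that joins the hemispheres. All mice carried the Mertk_KO genotype and received 0.2% cuprizone chow for 4 weeks. Cuprizone is a copper chelator that kills oligodendrocytes, and Mertk encodes a receptor that phagocytes use to engulf dying cells. Annexin V, which binds the phosphatidylserine that dying cells expose, divided the cells into AnnexinV-positive (2 libraries) and AnnexinV-negative (2 libraries) cells. No library of wild-type or untreated mice was analysed here, and the labels give no ages and do not say whether replicates came from separate animals. P-values therefore measure the spread between these samples alone, which could be technical.

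Myelin is rich in galactosylceramide and its sulfated form, sulfatide. Their synthesis begins in the endoplasmic reticulum, where serine palmitoyltransferase makes the sphingoid base, ceramide synthases add a fatty acid and a desaturase completes ceramide. In oligodendrocytes the fatty acid is often very long and hydroxylated, and ceramide is galactosylated and then sulfated, while other cells turn ceramide mainly into sphingomyelin and glucosylceramide. Oligodendrocytes also cleave N-acetylaspartate, which neurons release, into aspartate and acetate, a source of carbon for myelin lipid.

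The list divided into a group that fell and a group that did not. Ugt8a, Fa2h, Gal3st1, Elovl7 and Aspa were lower in AnnexinV-positive libraries, with means between 5.32-fold and 43.5-fold lower, and the groups did not overlap for any of them. Over all genes tested, 14.9% had both AnnexinV-positive values below both others and 60.9% had both above. In bulk samples fewer cells of a type and less RNA in each cannot be told apart. Cers2, Degs1 and Sgms1 were at similar levels in both groups and did not pass the test. For each of them, and for Elovl1 and Sptlc2, both AnnexinV-positive values were above both others, as for 60.9% of all genes tested. Elovl1 and Sptlc2 passed as higher on the deposited scale, but not once the libraries were centred on the median of all genes, and on the TPM scale their signs turned. In all, 5 of 10 members were lower and 2 higher, where 9.26% of the 10927 genes tested were lower and 30.8% higher (limma, adjusted p under 0.05 by Benjamini-Hochberg). Genes were tested if they reached an RPKM (reads scaled by gene length and sequencing depth) of 1 in 2 libraries. All 10 members passed that filter, but Ugt8a, Fa2h, Gal3st1 and Aspa did so only through the AnnexinV-negative libraries. Elovl7 reached an RPKM of 1 in 1 AnnexinV-positive library, and so also needed the AnnexinV-negative libraries to pass. The count of lower members therefore adds no support. Without a filter, over 44826 genes of which 5.55% were lower and 4.16% higher, the 5 lower members still passed as lower, and 0 members were higher.

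**Figure D1:**
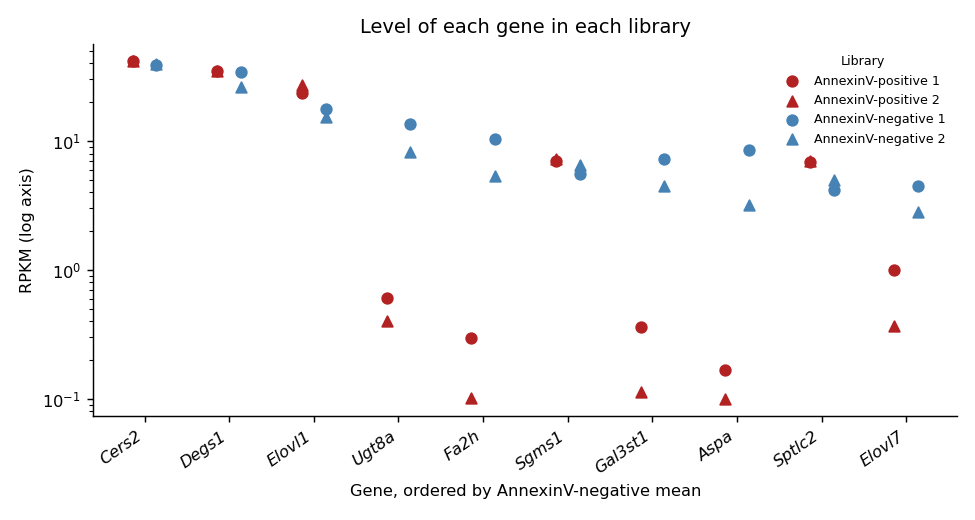
RPKM of each gene in each library on a log axis. Red marks are AnnexinV-positive and blue marks AnnexinV-negative libraries, with circles for replicate 1 and triangles for replicate 2. Ugt8a, Fa2h, Gal3st1, Aspa and Elovl7 lie far lower in the red than in the blue libraries, while Cers2, at 38.8 to 41.8, is level across all 4.

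The gene starts of Ugt8a, Gal3st1, Elovl7 and Aspa, members that fell together, are shown with that of Elovl1, the other elongase of the list, which did not fall. Each is the 250 bases upstream of a RefSeq start on GRCm38.p6, the same assembly as mm10. They are written 5′ to 3′ on the gene's strand and hold no annotated exon. Matches to short motifs on either strand are in capitals.
Ugt8a: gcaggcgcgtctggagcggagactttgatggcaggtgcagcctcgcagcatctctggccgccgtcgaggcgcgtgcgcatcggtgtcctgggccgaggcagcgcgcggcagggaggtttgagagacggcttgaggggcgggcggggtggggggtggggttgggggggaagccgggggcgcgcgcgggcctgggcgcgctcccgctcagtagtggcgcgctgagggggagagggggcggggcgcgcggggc
Gal3st1: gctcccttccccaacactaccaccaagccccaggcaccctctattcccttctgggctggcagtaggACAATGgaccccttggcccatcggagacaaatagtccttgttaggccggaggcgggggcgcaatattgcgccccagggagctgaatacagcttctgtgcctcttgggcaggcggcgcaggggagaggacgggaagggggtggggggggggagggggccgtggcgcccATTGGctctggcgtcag
Elovl7: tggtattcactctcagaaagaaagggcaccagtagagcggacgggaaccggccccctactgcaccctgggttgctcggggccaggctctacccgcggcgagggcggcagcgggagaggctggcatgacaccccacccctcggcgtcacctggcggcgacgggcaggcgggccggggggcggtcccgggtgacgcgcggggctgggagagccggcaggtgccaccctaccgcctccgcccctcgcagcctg
Aspa: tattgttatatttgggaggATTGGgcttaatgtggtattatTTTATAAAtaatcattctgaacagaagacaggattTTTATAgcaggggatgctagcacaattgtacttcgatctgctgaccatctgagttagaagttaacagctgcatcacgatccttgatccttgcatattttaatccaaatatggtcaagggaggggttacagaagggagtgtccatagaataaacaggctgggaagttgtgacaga
Elovl1: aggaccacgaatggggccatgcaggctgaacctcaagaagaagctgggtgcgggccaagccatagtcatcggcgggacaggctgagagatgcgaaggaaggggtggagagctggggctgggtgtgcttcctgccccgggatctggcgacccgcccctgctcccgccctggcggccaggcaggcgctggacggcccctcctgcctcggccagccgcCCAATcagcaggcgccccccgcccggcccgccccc

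The windows lie at chr3:125938653-125938902 (minus strand) for Ugt8a, chr11:3983386-3983635 (plus) for Gal3st1, chr13:108214154-108214403 (plus) for Elovl7, chr11:73324638-73324887 (minus) for Aspa and chr4:118427843-118428092 (plus) for Elovl1. The RefSeq start of Aspa is inside the longer gene model of GENCODE. The table had windows for 9 of the 10 members; Fa2h had none. The motifs searched were ACAAAG and ACAATG, bound by SOX proteins such as the oligodendrocyte factor SOX10, CTGGCAC and CTGGTAC for the myelin factor MYRF, TATAAA, and CCAAT. Over all 32851 windows of this length in the table, 16.5%, 10.7%, 4.19%, 1.83%, 12.4% and 33.9% held them, in the same order. Among the 5 windows shown, ACAATG was found in Gal3st1, TATAAA in Aspa, and CCAAT in Gal3st1, Aspa and Elovl1, while Ugt8a and Elovl7 held none of the 6. In windows not shown, Sgms1, which did not fall, held CTGGTAC in one and ACAAAG in another. Windows of Sptlc2, Cers2 and Sgms1 held CCAAT, and a further, overlapping window of Gal3st1 held the same ACAATG and CCAAT. Base composition differed among the members that fell. The ratio of observed to expected CpG was 0.993 in the Ugt8a and 0.740 in the Elovl7 window, but 0.414 in Gal3st1 and 0.230 in Aspa. It was 0.556 in Elovl1, 0.625 in Sptlc2 and 0.628 in Degs1, with a median of 0.373 over all windows. Further windows gave 0.444 and 0.105 for Gal3st1 and 0.242 for Elovl1. Those of Cers2 were at 0.692 and 0.286, and those of Sgms1 at 0.238 to 1.157.

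Ugt8a encodes the ceramide galactosyltransferase that makes galactosylceramide (chromosome 3, 125865271 to 125938619, minus strand; coordinates of genes are GENCODE vM21 on GRCm38). AnnexinV-positive libraries held it at an RPKM of 0.610 and 0.399, AnnexinV-negative libraries at 13.4 and 8.22. Both AnnexinV-positive values were far under both others. The means were 0.504 ± 0.149 and 10.8 ± 3.69 (SD, n = 2 each), which is a log2 fold change of -4.16 with an SE of 0.31 (limma adjusted p 4.81e-04). All fold changes were computed on log2(RPKM + 0.1), which understates the change of genes this low.

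Gal3st1 encodes the sulfotransferase that turns galactosylceramide into sulfatide (chromosome 11, 3983636 to 3999326, plus strand). Its RPKM was 0.362 and 0.114 in AnnexinV-positive and 7.27 and 4.46 in AnnexinV-negative libraries, means of 0.238 ± 0.175 and 5.87 ± 1.99 (SD, n = 2 each). It fell by 4.21 on the log2 scale (SE 0.42, limma adjusted p 0.00122). Fa2h encodes the hydroxylase that puts the hydroxyl group on the fatty acid of myelin galactolipids (chromosome 8, 111345135 to 111393824, minus strand). It stood at 0.296 and 0.103 RPKM against 10.4 and 5.38, means of 0.199 ± 0.137 and 7.87 ± 3.52 (SD, n = 2 each). Its log2 fold change, -4.74 (SE 0.43, limma adjusted p 8.47e-04), was the lowest of the list, and 39 of the 10927 genes tested were lower still. The 3 enzymes that hydroxylate, galactosylate and sulfate the myelin lipid were thus all under 1 RPKM in both AnnexinV-positive libraries and above 4 in both others.

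Aspa encodes aspartoacylase, which cleaves N-acetylaspartate and whose loss causes Canavan disease (chromosome 11, 73304992 to 73329596, minus strand). Its RPKM was 0.168 and 0.0998 in AnnexinV-positive and 8.49 and 3.17 in AnnexinV-negative libraries. Aspa was the lowest member in AnnexinV-positive libraries, at a mean of 0.134 ± 0.0484, against 5.83 ± 3.76 in AnnexinV-negative libraries (SD, n = 2 each). The log2 fold change was -4.52 (SE 0.47, limma adjusted p 0.00129).

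The 2 elongases of the list parted. Elovl7, which lengthens long saturated and unsaturated fatty acids (chromosome 13, 108214404 to 108285683, plus strand), stood at 1.003 and 0.365 RPKM in AnnexinV-positive and 4.44 and 2.83 in AnnexinV-negative libraries. The groups did not overlap, and its log2 fold change was -2.35 (SE 0.44, limma adjusted p 0.00762), less than that of the other members that fell. Elovl1, which makes very-long-chain acyl groups for sphingolipids (chromosome 4, 118428093 to 118432953, plus strand), stood at 23.5 and 27.2 against 17.6 and 15.5 RPKM. Its log2 fold change was 0.61 (SE 0.18, limma adjusted p 0.0363) on the deposited scale, 0.19 (adjusted p 0.509) with libraries centred on their median log2 ratio to the mean library, and -0.16 (adjusted p 0.528) on the TPM scale. Per library, the ratio of Elovl7 to Elovl1 was 0.0427 and 0.0134 in AnnexinV-positive against 0.253 and 0.183 in AnnexinV-negative cells. Such a ratio within a library does not depend on the scale between libraries. It did not overlap between groups, which follows from the values of the 2 genes given above and adds no support.

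The enzymes that build ceramide were near level. Sptlc2, a subunit of serine palmitoyltransferase (chromosome 12, 87305058 to 87388355, minus strand), stood at 6.87 and 6.97 RPKM in AnnexinV-positive and 4.20 and 4.97 in AnnexinV-negative libraries. Both AnnexinV-positive values were above both others, at 0.59 on the log2 scale (SE 0.19, limma adjusted p 0.0455), against 0.17 (adjusted p 0.596) with median-ratio centring and -0.18 (adjusted p 0.546) on the TPM scale. Degs1, the desaturase that makes ceramide from dihydroceramide (chromosome 1, 182275772 to 182282804, minus strand), stood at 34.9 and 34.8 against 34.5 and 26.2 RPKM. The log2 fold change of Degs1, 0.21 (SE 0.20, limma adjusted p 0.406), did not pass. Cers2, the ceramide synthase for very long acyl chains (chromosome 3, 95314791 to 95323599, plus strand), stood at 41.7 and 41.8 against 38.8 and 39.3 RPKM, or 0.10 on the log2 scale (SE 0.17, limma adjusted p 0.654). Cers2 had the highest level of the list in both groups. On the TPM scale Cers2 passed as lower, at -0.68 (limma adjusted p 0.0296), where 19.3% of genes were lower. The libraries do not keep strand, and Cers2 shares exon bases with Setdb1 and an antisense transcript, Elovl1 with Cdc20, and Sgms1 with a noncoding RNA on the other strand, so reads of these pairs cannot be told apart.

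Sgms1, the Golgi enzyme that turns ceramide into sphingomyelin (chromosome 19, 32122727 to 32389714, minus strand), stood at 7.02 and 7.32 RPKM against 5.57 and 6.47. The log2 fold change of Sgms1, 0.25 (SE 0.19, limma adjusted p 0.298), did not pass. The ratio of Sgms1 to Ugt8a, the enzymes of the sphingomyelin and galactosylceramide branches, was 11.5 and 18.3 in AnnexinV-positive but 0.414 and 0.787 in AnnexinV-negative libraries. Ugcg, the enzyme of the glucosylceramide branch, stood to Ugt8a at 12.4 and 15.6 against 0.383 and 0.488. Ugt8a thus had more RNA per length than either Sgms1 or Ugcg in both AnnexinV-negative libraries, and less in both AnnexinV-positive libraries. In bulk libraries these RNAs need not come from the same cells. The part of cell mix in the ratios was not tested. Galc, which breaks galactosylceramide down in lysosomes, stood to Ugt8a at 11.6 and 19.5 against 0.343 and 0.701.

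**Figure D2:**
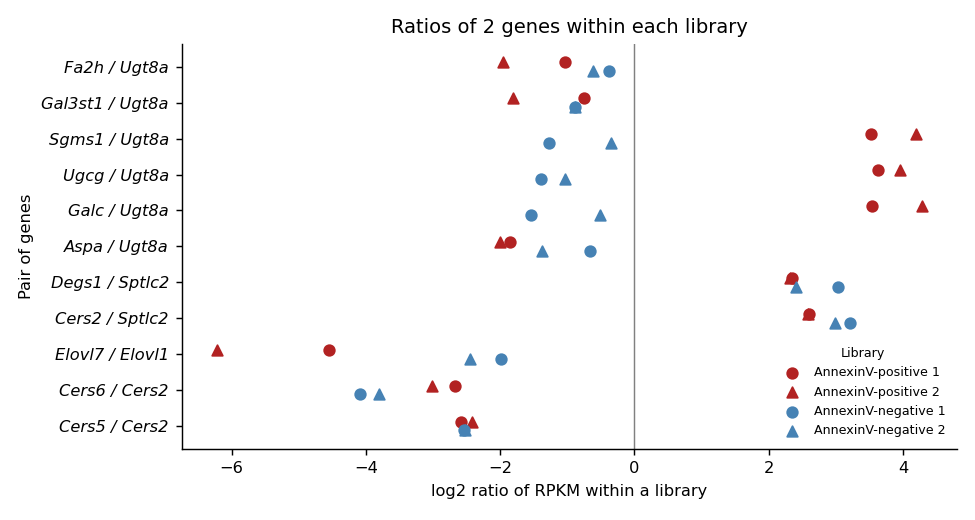
Log2 ratio of the RPKM of 2 genes within each library, with 1 row for each pair. Red marks are AnnexinV-positive and blue marks AnnexinV-negative libraries. The ratios of Sgms1, Ugcg and Galc to Ugt8a lie above 3.5 in red and below 0 in blue, while Gal3st1 to Ugt8a and Cers5 to Cers2 overlap.

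Within the galactolipid branch the ratios moved little beside these. Gal3st1 to Ugt8a was 0.593 and 0.285 in AnnexinV-positive and 0.541 and 0.542 in AnnexinV-negative libraries, which overlapped. Fa2h to Ugt8a was 0.486 and 0.257 against 0.771 and 0.655, and Aspa to Ugt8a 0.276 and 0.250 against 0.632 and 0.386, both lower in each AnnexinV-positive library. At the base of the pathway, Cers2 to Sptlc2 was 6.07 and 5.996 against 9.24 and 7.90, and Degs1 to Sptlc2 5.08 and 4.99 against 8.21 and 5.28. The ratios are given as a description and were not tested. The low values rest on few reads. From the value of 1 read, Gal3st1 had about 73 and 20 reads in the AnnexinV-positive libraries, Fa2h about 88 and 27, Aspa about 99 and 51 and Ugt8a about 273 and 156, so that all were detected in every library.

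Ordered by mean level, the AnnexinV-negative libraries gave Cers2, Degs1, Elovl1, Ugt8a, Fa2h, Sgms1, Gal3st1, Aspa, Sptlc2 and Elovl7. From Ugt8a down, the ranges of neighbours in this order overlapped. In AnnexinV-positive libraries Cers2, Degs1, Elovl1, Sgms1 and Sptlc2 led, none of whose ranges met, and Elovl7, Ugt8a, Gal3st1, Fa2h and Aspa followed at means of 0.684 or less. Of these, Ugt8a did not overlap Gal3st1, and the other neighbours did.

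The members that fell also differed between replicates. In both groups replicate 1 held more than replicate 2, by 1.57-fold for Elovl7 to 2.67-fold for Aspa in AnnexinV-negative and by 1.53-fold for Ugt8a to 3.18-fold for Gal3st1 in AnnexinV-positive libraries. For Cers2 the same ratios were 0.988 and 0.997. A list of 15 markers of mature oligodendrocytes that holds none of the members moved the same way between libraries: 15 were higher in AnnexinV-negative replicate 1 than 2 (median 1.86-fold) and 14 in AnnexinV-positive replicate 1 (median 1.39-fold). Summed over the list, these markers stood at 103 and 87.6 RPKM in AnnexinV-positive and 1119 and 638 in AnnexinV-negative libraries, with none at 0 in any library. All 15 were lower in AnnexinV-positive cells, by log2 fold changes of -6.11 (Mog) to -1.18 (Trf) with a median of -5.14, though 10 of them reached an RPKM of 1 only in AnnexinV-negative libraries. Fa2h, Aspa, Gal3st1 and Ugt8a lay inside that range, and 14 of 15 markers fell by more than Elovl7. With libraries centred on the median of these markers, Fa2h (0.45), Aspa (0.68), Gal3st1 (0.99) and Ugt8a (1.04) did not pass (limma adjusted p 0.550, 0.360, 0.189 and 0.185). Elovl7 passed at 2.84 (limma adjusted p 1.89e-04), on a scale where 98.9% of all genes were higher and the median gene was at 5.64. The part of oligodendrocyte content in the members' change was not tested.

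Other cell types also differed between the groups. Homeostatic microglia markers summed to 5609 and 5577 RPKM in AnnexinV-positive and 2182 and 2678 in AnnexinV-negative libraries. On the deposited scale 14 of 14 were higher, by a median of 1.196, where 30.8% of all genes tested were higher. With median-ratio centring 11 were higher, at a median of 0.77, and on the TPM scale 0, at a median of 0.42. Lower on the deposited scale were 8 of 10 astrocyte, 7 of 9 endothelial, 6 of 7 oligodendrocyte precursor, 4 of 6 mural or fibroblast and 2 of 3 neuron markers tested. The share of all genes tested that were lower was 9.26%. Below the filter, and so not tested, were 1 of 11 listed astrocyte, 1 of 10 endothelial and 3 of 10 precursor markers. So were 4 of 10 mural or fibroblast and 9 of 12 neuron markers. Of the markers tested in these lists, 5 endothelial, 2 precursor, 4 mural or fibroblast and 2 neuron markers, but 0 astrocyte markers, reached an RPKM of 1 in AnnexinV-negative libraries only. Further astrocyte, endothelial, precursor and neuron markers reached it in only 1 AnnexinV-positive library, and so also needed the AnnexinV-negative libraries. The counts of lower markers therefore add no support where they rest on such markers. The 2 tested markers of border macrophages or monocytes, of 8 listed, were higher on the deposited scale. With median-ratio centring 1 passed as higher, and on the TPM scale 0. Of the 2, Ms4a7 reached an RPKM of 1 in only 1 AnnexinV-negative library, and so needed the AnnexinV-positive libraries to be tested. Its higher call therefore adds no support. With libraries centred on the microglia markers, 9 members passed as lower, among them Cers2 (-1.02), Degs1 (-0.91), Sgms1 (-0.87) and Sptlc2 (-0.53), while Elovl1 (-0.51, limma adjusted p 0.0762) did not. On that scale 49.4% of all genes were lower. The part of these cell types in the results was not tested. The direction of small changes in this comparison was set by the scale. Over all genes tested the median was 0.45 on the deposited scale, 0.02 with median-ratio centring and -0.31 on the TPM scale. With median-ratio centring 5 members were lower and 0 higher, where 11.9% of genes were lower and 6.53% higher. On the TPM scale Cers2 joined them, with 6 lower and 0 higher, where 19.3% were lower and 1.04% higher.

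**Figure D3:**
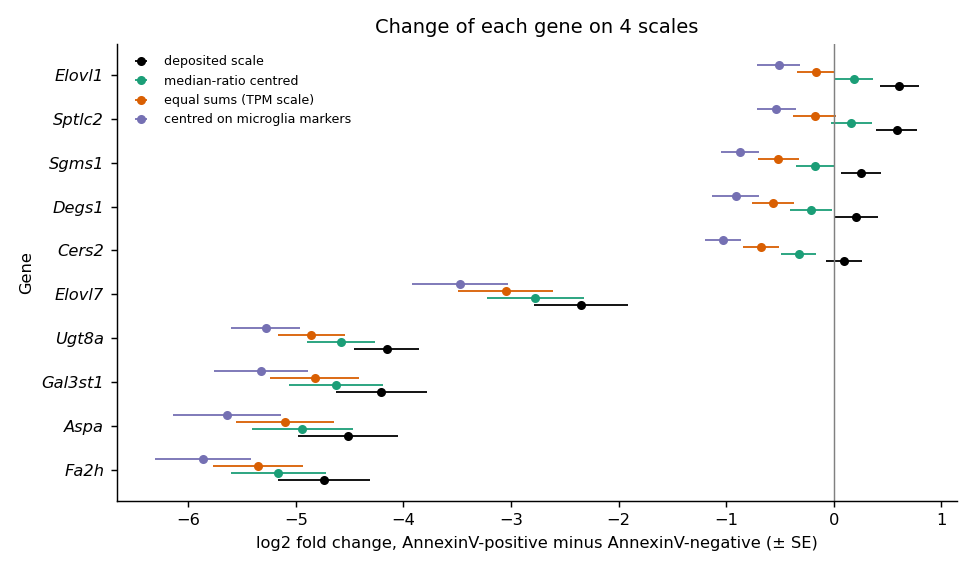
Log2 fold change (± SE) of each gene, AnnexinV-positive minus AnnexinV-negative, on 4 scales shown by colour. Fa2h, Aspa, Gal3st1, Ugt8a and Elovl7 lie below -2 on each of them, and the other 5 genes lie within about 1 unit of 0, with signs that depend on the scale.

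Genes around the members were read from lists of the same pathways. The counts of each list stand beside the shares of all genes tested. These were 9.26% lower and 30.8% higher on the deposited scale, 11.9% and 6.53% with median-ratio centring, and 19.3% and 1.04% on the TPM scale. Of 14 further genes of sphingoid base and ceramide synthesis, 10 were tested, 2 were lower and 3 higher, with a median of 0.16. Both lower genes were tested only through their level in AnnexinV-negative libraries, so that their count adds no support. Degs2, which also hydroxylates dihydroceramide, fell by 2.88 on the log2 scale, and Cers1, the ceramide synthase of neurons, fell by 1.20. Cers6, a synthase for shorter acyl chains, rose by 1.17 (limma adjusted p 0.00808), from 2.54 ± 0.375 to 5.86 ± 1.003 RPKM (SD, n = 2 each), and Ormdl2, a regulator of serine palmitoyltransferase, by 0.77. Sptssa, a small subunit of that enzyme, was the other higher gene, at 0.64 (limma adjusted p 0.0497). With median-ratio centring 0 were higher and 2 lower, and on the TPM scale 0 and 5. The ratio of Cers6 to Cers2 was 0.158 and 0.123 in AnnexinV-positive and 0.0586 and 0.0714 in AnnexinV-negative libraries. That of Cers5 to Cers2 overlapped, at 0.166 and 0.186 against 0.172 and 0.174.

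Of 18 genes of fatty acid elongation and desaturation 15 were tested, with 5 lower, 3 higher and a median of -0.10. Of the lower genes Scd1 and Elovl4 reached an RPKM of 1 only in AnnexinV-negative libraries. Scd1 and Scd2, which make monounsaturated fatty acids, had log2 fold changes of -3.93 and -1.55, and Acsl3, which activates fatty acids, of -2.56. Scd2 went from 132 ± 1.68 to 45.2 ± 6.92 RPKM and Acsl3 from 11.2 ± 1.89 to 1.81 ± 0.137 (SD, n = 2 each). Fads2, a desaturase of polyunsaturated fatty acids, was at -1.25 and Elovl4, a further elongase, at -1.76. Hacd4 (1.02), Acsl4 (1.13) and Hacd2 (0.86) were higher, and passed neither with median-ratio centring, where 0 were higher and 7 lower, nor on the TPM scale, with 0 higher and 8 lower.

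Of 11 genes of the sphingomyelin and glucosylceramide branches 9 were tested, 4 were higher and 0 lower, with a median of 0.58. No gene of this list had a negative log2 fold change at an unadjusted p under 0.05 either. St3gal5, which makes the ganglioside GM3, rose by 1.29 (limma adjusted p 0.00317), from 9.42 ± 0.631 to 23.2 ± 1.09 RPKM (SD, n = 2 each). It was also the 1 gene of the list that passed with median-ratio centring (0.87, limma adjusted p 0.0163). The ganglioside and lactosylceramide synthases B4galt5 (1.07), B4galnt1 (0.99) and B4galt6 (0.98) were higher on the deposited scale. B4galt6 reached an RPKM of 1 only in AnnexinV-positive libraries, so its place in the count of higher genes adds no support. On the TPM scale 0 were higher, and Samd8, an enzyme related to the sphingomyelin synthases, was lower (-0.79). Ugcg was at 0.58 (limma adjusted p 0.0687).

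**Figure D4:**
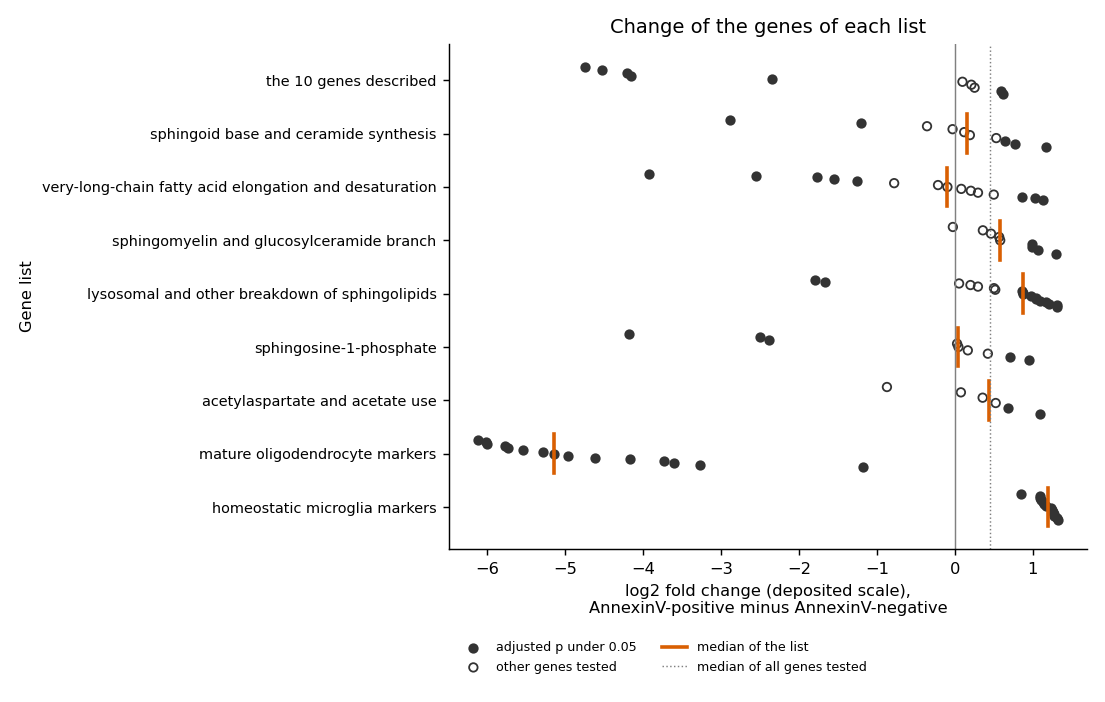
Log2 fold change of every tested gene of each list on the deposited scale, filled where the limma adjusted p was under 0.05, with the median of each further list as a bar. The dotted line is the median of all genes tested, 0.45; genes of sphingolipid breakdown lie mostly to its right and mature oligodendrocyte markers far to its left.

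Of 20 genes of sphingolipid breakdown 18 were tested, 11 were higher and 2 lower, where 30.8% of all genes tested were higher and 9.26% lower. Their median was 0.87, below the median of the microglia markers. The lysosomal genes Glb1 (1.304), Ctsa (1.303), Gm2a (1.04) and Asah1 (1.04) had the smallest p among those higher, and all 4 stayed past the test with median-ratio centring, where 5 were higher. Ctsa went from 136 ± 23.6 to 333 ± 14.9 RPKM and Asah1, the acid ceramidase, from 39.5 ± 2.68 to 81.2 ± 2.92 (SD, n = 2 each). On the TPM scale 0 were higher and 3 lower, and centred on the microglia markers 0 and 7. Galc was at 0.52 (limma adjusted p 0.0771), from 4.61 and 5.77 to 7.08 and 7.78 RPKM. The genes that fell were Neu4 (-1.79) and the ceramidase Acer2 (-1.67), both of them tested only through the AnnexinV-negative libraries. Neu4 is also in the list of oligodendrocyte precursor markers.

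Of 12 genes of sphingosine-1-phosphate handling 9 were tested, with 3 lower, 2 higher and a median of 0.05. All 3 lower genes passed the filter only through the AnnexinV-negative libraries, so their count adds no support. S1pr5, a receptor known from oligodendrocytes, stood at 0.0890 and 0.0790 RPKM in AnnexinV-positive and 4.70 and 2.22 in AnnexinV-negative libraries. Its log2 fold change of -4.18 (limma adjusted p 0.00104) was close in size to that of Ugt8a. The receptor S1pr3 fell by 2.38, and Mfsd2a, a lipid transporter known from brain endothelium, fell by 2.49. The lyase Sgpl1 (0.94) and the kinase Sphk2 (0.71) were higher on the deposited scale and passed neither with median-ratio centring nor on the TPM scale.

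Of 12 genes of acetylaspartate and acetate use 6 were tested, with 2 higher, 0 lower and a median of 0.44. Acss2, which makes acetyl-CoA from acetate in the cytosol and nucleus, had the lowest value, at -0.87 (limma adjusted p 0.0750). It was tested only through its AnnexinV-negative level, and passed with median-ratio centring (-1.29, limma adjusted p 0.0415) and on the TPM scale (-1.58, limma adjusted p 0.0182). Acss1, the mitochondrial enzyme, was at 0.68 (limma adjusted p 0.0411). Nat8l, which makes N-acetylaspartate, was at 1.09 (limma adjusted p 0.0314), from 0.520 and 0.836 to 1.35 and 1.73 RPKM. Nat8l was tested only through its AnnexinV-positive level, so its higher call adds no support. Neither Acss1 nor Nat8l passed with median-ratio centring or on the TPM scale. Acly, which makes acetyl-CoA from citrate, was at 0.52 (limma adjusted p 0.0884). The genes of the related dipeptide N-acetylaspartylglutamate were too low to test: Rimkla stood at 0.111 and 0.105 against 0.455 and 0.438 RPKM and Folh1 at 0.265 and 0.253 against 1.11 and 0.816.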

How the data were processed

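Bulk RNA-seq libraries of AnnexinV-positive and AnnexinV-negative cells (2 each, grouped by title) were compared. Per the labels' protocols, tissue was dissociated with an enzymatic kit and libraries were made with a TruSeq v2 kit, which loses strand. The aligner was GSNAP and the build mm10, per the submitters' processing notes. The sources used here do not name the counter, annotation or filters. The deposited files give no unit. Values were read as RPKM scaled by the authors between libraries, because 79.6% to 83.6% of values worth under 100 reads were whole (to 0.01) once divided by the value of 1 read, taken as inverse to GENCODE vM21 exonic length. This gave about 43.3 to 67.5 reads in genes per library, in units of 1000000.

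Genes reaching an RPKM of 1 in 2 libraries were kept, and on log2(RPKM + 0.1) limma 3.58.1 (R 4.3.3) with an intensity trend compared the groups over all 10927 genes, with no covariate. The steps were tested on simulated data. The TPM scale gives each library the same sum; median-ratio centring subtracts each library's median log2 ratio to the mean of the 4 libraries. Promoter windows are from RefSeq. Replicate numbers are shared between groups but do not pair samples by any label. Further settings were other pseudocounts and filters, other centrings, no trend, a replicate block and leaving out each library.

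The members and lists were chosen with earlier results of these data known. Named genes are the 10 members, the 4 tested genes of each pathway list with the smallest p, and the genes of 11 fixed pairs; other names make up small counts or, as with Rimkla, Folh1, Samd8, Neu4, Acer2, Sphk2, Sptssa, Mog and Trf, were added after their values were seen.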

Additional observations from a re-analysis of the deposited data

How the results depend on the processing

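With 2 libraries per group, small fold changes depended on the scale and on single libraries, and the large falls changed their call on 1 scale. The 5 lower members (Ugt8a, Fa2h, Gal3st1, Aspa, Elovl7) passed as lower under every alternative except centring on the oligodendrocyte markers, where 0 members were lower and 6 higher. On that scale their log2 fold changes were 1.04, 0.45, 0.99, 0.68 and 2.84. Centred on the microglia markers 9 were lower, and leaving out each library left 5 (5 to 5). The 2 higher members, Elovl1 and Sptlc2, fell to 0 with either looser filter, without the trend, with the replicate block, on the TPM scale and with every centring except that on the oligodendrocyte markers, and to 0 to 1 when a library was left out; the cause was not tested. Without AnnexinV-positive replicate 1 or 2 neither passed (0 each), without AnnexinV-negative replicate 1 Elovl1 alone did (0.70), and without replicate 2 Sptlc2 alone (0.71).

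Signs turned as follows. Centred on the median of the genes tested, Cers2, Degs1 and Sgms1 were at -0.22, -0.10 and -0.061, with median-ratio centring at -0.33, -0.21 and -0.17, on the TPM scale at -0.68, -0.57 and -0.51, and centred on the microglia markers at -1.02, -0.91 and -0.87. Elovl1 and Sptlc2 were at -0.16 and -0.18 on the TPM scale and at -0.51 and -0.53 centred on the microglia markers.

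Over all genes, 1012 were lower and 3364 higher. With a filter of 0.1 RPKM 3913 were lower, without a filter 2489 lower and 1865 higher, on the TPM scale 2104 and 114, centred on the oligodendrocyte markers 0 and 10808 (limma), centred on the microglia markers 5393 and 22, centred on the median 1133 higher, and with median-ratio centring 1303 lower and 713 higher. Leaving out a library gave 787 to 1060 lower and 1297 to 3356 higher, the fewest higher without AnnexinV-positive replicate 2 (1297) and replicate 1 (1749). Median-ratio centring and the crossed block were added after seeing the data. Deviations of same-numbered libraries had a weak negative correlation across genes (r = -0.21), although the 5 lower members were higher in replicate 1 of both groups. The replicate block (957 lower, 2443 higher, with 5 members lower and 0 higher) rests on a shared number only. With crossed numbers 1136 were lower and 4891 higher.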
